A study of Mus musculus with 24 samples.

Results

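Non-endothelial (non-EC) liver cells of embryos that lacked both chromatin remodelers BRG1 and CHD4 in their endothelium were compared with the same cell fraction of control embryos. The comparison used 6 of the 24 libraries of the series, 3 of Brg1/Chd4-ECdko and 3 of control livers. It covered the 12223 genes, of 25361 in the table, that reached at least 1 TPM (a transcript abundance scaled for gene length and to a fixed total per library) in 3 or more of the 12 non-EC libraries. The series holds RNA-Seq of mouse livers at embryonic day (E) 12.5, in which liver sinusoidal endothelial cells (LSECs) were drawn out with magnetic beads against CD146 and the cells left behind formed the non-EC fraction. Each of 4 genotypes gave 3 libraries per fraction, and by the study's account each library came from 1 embryo.

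Control embryos carried no VE-cadherin-Cre and, by the study's crosses, at least 1 floxed allele of Brg1 and of Chd4 that was not recombined. Brg1/Chd4-ECdko embryos were Chd4 fl/fl, Brg1 fl/fl and positive for VE-cadherin-Cre. The single mutants that share the fit were Chd4-ECko embryos, which were Brg1 fl/+, and Brg1-ECko embryos, which were Chd4 fl/+. The Cre is driven by the endothelial VE-cadherin promoter, and some fetal liver blood cells also show its activity, so that the non-EC fraction can hold recombined cells. The library titles and column headers name no batch or litter. Embryos of both sexes were pooled, and the strain background was mixed.

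In midgestation the liver has a pair of tasks. Hepatoblasts, the shared precursors of hepatocytes and bile duct cells, secrete plasma proteins and make lipid, while the blood cells among them, above all erythroid precursors, supply the embryo with red cells. BRG1 (gene Smarca4) is an ATPase of SWI/SNF complexes, which are best known for opening chromatin, and CHD4 is an ATPase of the NuRD complex, which is best known for closing it. The non-EC fraction is a mixture, and in such bulk samples fewer cells of a type and less RNA per cell cannot be told apart.

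The non-EC libraries matched their label. Afp, the fetal counterpart of albumin, stood at 7808 to 8506 TPM in controls. Mcam, which encodes CD146, stood at 0.258 to 0.772 TPM in control non-EC cells against 49.4 to 61.5 TPM in control LSECs, and Cdh5 (VE-cadherin) at 3.33 to 9.10 against 298 to 368 TPM. The summed TPM of 23 endothelial genes was 72.4 to 106 in controls and 92.5 to 119.9 in Brg1/Chd4-ECdko, against 2350 to 3138 in control LSECs. The number of genes that reached 1 TPM was 11450 to 11858 in controls and 11834 to 11943 in Brg1/Chd4-ECdko. Replicates correlated at 0.951 to 0.992 across genes, and no libraries held identical values.

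The deleted genes did not check the genotypes in either fraction. In LSECs, which the Cre targets, Chd4 was at 262 ± 20.1 TPM in controls and 249 ± 6.95 TPM in Brg1/Chd4-ECdko, and Smarca4 at 146 ± 13.4 and 133 ± 16.8 TPM (SD, n = 3 each). In the non-EC fraction Chd4 stood at 370.3, 350 and 378 TPM in controls and at 377, 362 and 379 TPM in Brg1/Chd4-ECdko, with overlap between groups (log2 difference 0.03 ± 0.07, adjusted p = 0.967, where ± after a log2 value gives its SE here and throughout). Smarca4 stood at 189, 183 and 185 TPM in controls and at 169, 162 and 163 TPM in Brg1/Chd4-ECdko, and the difference did not pass the adjustment (-0.17 ± 0.07, adjusted p = 0.361). Whole-gene TPM also counts transcripts of a recombined allele outside its floxed exons. By qRT-PCR of LYVE1-positive LSECs at E12.5, the study reported lower Chd4 and Brg1 transcripts in the mutants concerned.

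Embryo sex was nearly confounded with genotype. The summed TPM of 4 Y-linked genes was 71.5, 109 and 74.6 in the controls, and 28.6, 1.20 and 0.671 in Brg1/Chd4-ECdko replicates 1, 2 and 3. Y-linked transcripts were thus plain in every control and in Brg1/Chd4-ECdko replicate 1, and near 0 in the other two.

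The comparison called 14 differentially expressed genes (DEGs: adjusted p under 0.05 and a difference beyond 1 on the log2 scale), or 0.115% of genes tested, and all 14 were higher in Brg1/Chd4-ECdko. No gene (0%) was a lower DEG. In the limma fit 1222 higher and 211 lower genes of the 12223 tested had an unadjusted p under 0.05. Without the fold threshold 69 genes (0.565%) were called higher and 2 (0.0164%) lower, with adjusted p between 0.0283 and 0.0489 for the higher genes. All 69 stood above every control in every Brg1/Chd4-ECdko library, and the 2 lower genes stood below every control. Across all genes, 1959 (16%) had their 3 Brg1/Chd4-ECdko libraries above the 3 controls and 979 (8.01%) had them below. Many list members named below were picked for a small p in this same comparison. For them a lack of overlap is no further evidence. Log2 fold changes, all on the log2(TPM + 1) scale, had a median of 0.01 over all genes.

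These calls lay close to the threshold, and most were lost when 1 library was left out. No gene was called by limma without control replicate 1, control replicate 2, Brg1/Chd4-ECdko replicate 1 or Brg1/Chd4-ECdko replicate 2, where 1341, 1029, 1020 and 1189 genes had an unadjusted p under 0.05. Without control replicate 3 there were 14 called genes, 12 of them among the 71, and without Brg1/Chd4-ECdko replicate 3 there were 8, of which 7 were among the 71. With embryo sex as a covariate 0 genes were called (1488 at an unadjusted p under 0.05), and the adjusted p of the 71 genes ran from 0.0864 to 0.129. In that fit the log2 fold change was 2.66 against 2.84 for Tnnt2, 1.16 against 1.17 for Itih4 and 1.41 against 1.49 for Trib3, and Igfbp1 was at 1.55 against 1.36. Trap1a was at 1.44 against 1.74. Tgtp1, at 0.83 against 1.03, and H1f10, at 0.89 against 1.005, no longer exceeded 1. The log2 fold change of none of the 71 genes changed sign under any of the 17 settings tried, in those where the gene passed the filter.

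**Figure D1:**
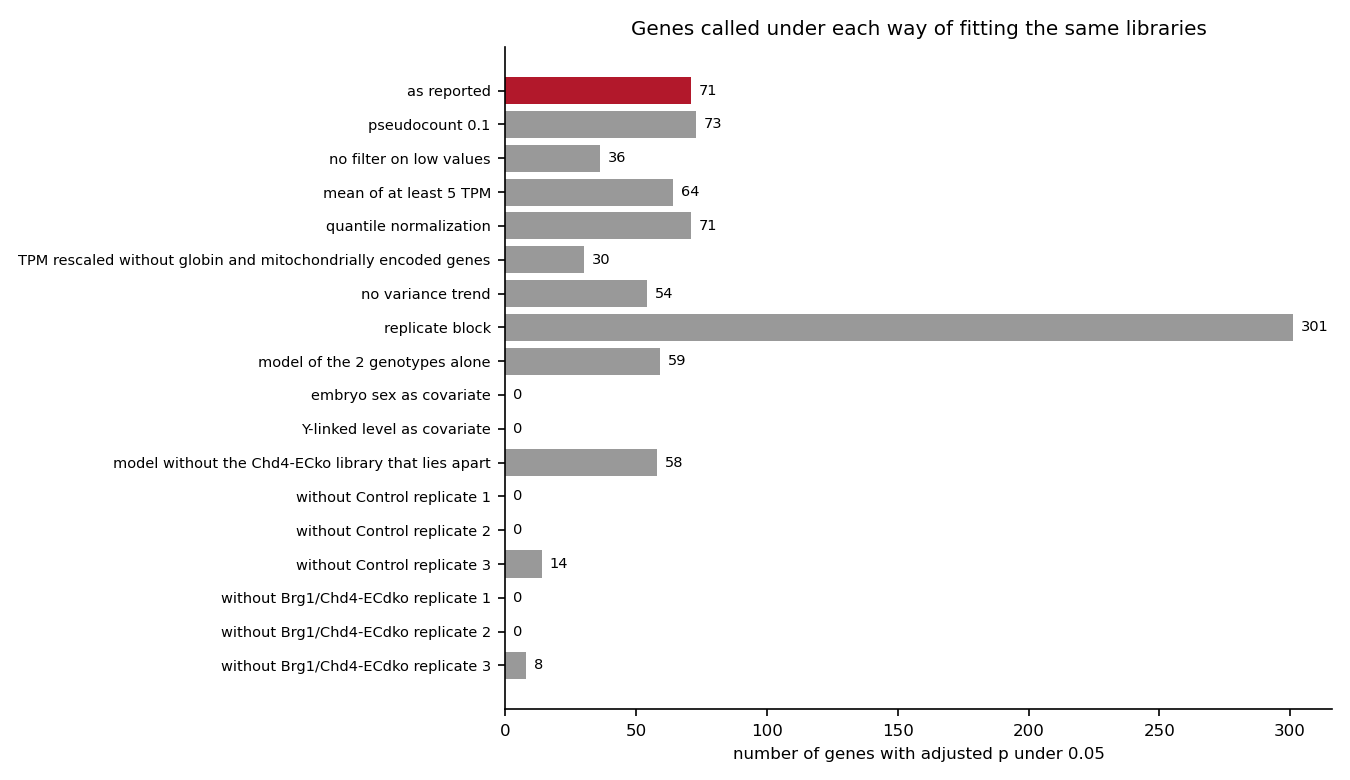
Number of genes with adjusted p under 0.05 between Brg1/Chd4-ECdko and control non-EC cells (horizontal axis) as reported (red bar, 71 genes) and under each alternative (grey bars). The counts run from 0, in 6 of the alternatives, to 301 with the replicate number as a block.

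With the pseudocount of 1 TPM the largest log2 fold change among called genes was that of Tnnt2 (ENSMUSG00000026414, GRCm39 chr1:135763738-135780315, plus strand), which encodes cardiac troponin T of the sarcomere's thin filament. It stood at 1.22, 1.04 and 1.48 TPM in controls and at 10.1, 24.5 and 13.6 TPM in Brg1/Chd4-ECdko. Every Brg1/Chd4-ECdko library was far above every control, with means of 1.25 ± 0.220 and 16.1 ± 7.50 TPM (SD, n = 3 each) and a log2 fold change of 2.84 ± 0.35 (SE, adjusted p = 0.0283 by limma). In Chd4-ECko it was at 1.66, 5.45 and 2.90 TPM and in Brg1-ECko at 0.885, 1.96 and 1.24 TPM, all below the lowest Brg1/Chd4-ECdko library. The direct differences were 1.98 ± 0.35 from Chd4-ECko (unadjusted p = 0.000121, adjusted p = 0.217) and 2.79 ± 0.35 from Brg1-ECko (unadjusted p = 5.26e-06, adjusted p = 0.0643), so that neither passed the adjustment over all genes.

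Of 27 striated muscle genes 10 passed the filter on low values, 1 was called and the median log2 fold change was 0.40. Tnni1, the troponin I of slow skeletal and fetal heart muscle, stood at 3.01, 2.50 and 3.38 TPM in controls and at 7.87, 12.48 and 12.7 TPM in Brg1/Chd4-ECdko (1.58 ± 0.35, adjusted p = 0.0662). Tnni3, cardiac troponin I, stood at 3.60, 3.998 and 2.52 TPM against 7.19, 14.5 and 10.7 TPM (1.40 ± 0.43, adjusted p = 0.170). Both were above every control in every Brg1/Chd4-ECdko library and missed the threshold, while Actc1, cardiac actin, overlapped at 3.497, 0.990 and 3.27 TPM against 2.74, 12.1 and 7.57 TPM. Other heart muscle genes of the list, chosen after their values were seen, were mixed. Nppa, Nppb and Csrp3 were listed at 0 in all 6 libraries, and Myh7, a cardiac myosin heavy chain, was at 0.134, 0 and 0 TPM against 0.0231, 0.0920 and 0.0231 TPM. Myl7, an atrial myosin light chain, overlapped at 0.581, 0.452 and 2.17 TPM against 1.25, 0 and 3.25 TPM, as did Mybpc3, a cardiac myosin-binding protein, at 0.700, 1.15 and 0.116 TPM against 0.745, 0 and 0.177 TPM. Control replicate 1 stood apart in skeletal muscle genes, again chosen after their values were seen. Tnnt3, a fast skeletal troponin T, reached 28.6 TPM there against at most 0.823 TPM in the other libraries, and Tnni2, a fast skeletal troponin I, 23.1 against at most 6.47 TPM. Tnnc2, a fast skeletal troponin C, was at 23.03 against at most 0.843 TPM, Acta1, skeletal actin, at 6.36 against at most 0.288 TPM, and Myl1, a myosin light chain, at 5.46 against at most 0.255 TPM. Without this library the log2 fold change of Tnnt2 was 2.83 and its adjusted p by limma 0.0800.

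Tcfl5 (ENSMUSG00000038932, GRCm39 chr2:180263529-180284556, minus strand) encodes a basic helix-loop-helix transcription factor known from the testis. It stood at 0.617, 0.300 and 0.720 TPM in controls and at 4.31, 6.24 and 5.30 TPM in Brg1/Chd4-ECdko, with no overlap (2.02 ± 0.26, adjusted p = 0.0283). Trap1a (ENSMUSG00000051257, GRCm39 chrX:138234367-138238920, plus strand), an X-linked tumor and germ cell antigen, was at 0, 0.680 and 0.272 TPM in controls and at 2.63, 4.15 and 3.26 TPM in Brg1/Chd4-ECdko (1.74 ± 0.32, adjusted p = 0.0466). Both belong to a list of 18 germ cell genes of which 5 were tested and these 2 called. In that list 3 were positive and 2 negative, down to -1.03, with a median of 0.30. The germ cell helicase Ddx4 overlapped between groups at 1.42, 0.753 and 1.17 TPM against 2.15, 1.62 and 1.08 TPM. Fabp3 (ENSMUSG00000028773, GRCm39 chr4:130202388-130209259, plus strand), a fatty acid carrier of heart and muscle, was at 0.625, 0.324 and 0.390 TPM in controls and at 2.33, 3.09 and 1.43 TPM in Brg1/Chd4-ECdko (1.16 ± 0.22, adjusted p = 0.0466). With a pseudocount of 0.1 TPM the log2 fold changes were 3.11 for Tcfl5, 3.464 for Trap1a, which then was not called (adjusted p = 0.0744), and 2.101 for Fabp3.

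Tcfl5, Trap1a and Fabp3, grouped after their values were seen, were high in both Chd4-ECko and Brg1/Chd4-ECdko livers. Tcfl5 was at 3.01, 7.96 and 6.005 TPM in Chd4-ECko livers against 1.37, 1.03 and 1.26 TPM in Brg1-ECko livers. Trap1a was at 1.32, 4.34 and 4.27 TPM against 0.117, 0.521 and 0 TPM in the same order, and Fabp3 at 2.65, 2.90 and 2.67 TPM against 0.841, 1.30 and 0.424 TPM. For each of them every Chd4-ECko and Brg1/Chd4-ECdko library was above every Brg1-ECko and control library, but they were grouped for this, so that it is no test. Trap1a reached 1 TPM only in Chd4-ECko and Brg1/Chd4-ECdko libraries, and Fabp3 in those and in the Brg1-ECko library at 1.30 TPM. The direct differences of Brg1/Chd4-ECdko from Brg1-ECko were 1.49 ± 0.26 for Tcfl5, 1.85 ± 0.32 for Trap1a and 0.82 ± 0.22 for Fabp3, with adjusted p of 0.216, 0.216 and 0.263, so that none passed. Tcfl5 and Trap1a were also higher in Brg1/Chd4-ECdko LSECs, by 2.60 and 2.63 on the log2 scale (adjusted p = 4.39e-06 and 0.000146), where Tcfl5 was at 1.69, 1.71 and 1.02 TPM in controls and at 11.5, 14.98 and 15.4 TPM in Brg1/Chd4-ECdko.

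Hapln1 (ENSMUSG00000021613, GRCm39 chr13:89686581-89759950, plus strand), a link protein that ties hyaluronan to proteoglycans of the matrix, had the opposite distribution in the non-EC fraction. It stood at 0.540, 0.210 and 0.533 TPM in controls and at 5.42, 15.1 and 3.82 TPM in Brg1/Chd4-ECdko (2.48 ± 0.38, adjusted p = 0.0311). With a pseudocount of 0.1 TPM its log2 fold change was 3.784, above the 3.497 of Tnnt2. It was at 2.71, 6.33 and 3.91 TPM in Brg1-ECko livers and at 0.791, 0.835 and 0.495 TPM in Chd4-ECko livers. The difference of Brg1/Chd4-ECdko from Chd4-ECko was 2.22 ± 0.38 (adjusted p = 0.217) and that from Brg1-ECko was 0.63 ± 0.38 (adjusted p = 0.476), so that neither passed. In LSECs the distribution was not opposite. There Hapln1 was at 18.5 to 21.5 TPM in Chd4-ECko and 19.9 to 35.0 TPM in Brg1/Chd4-ECdko. Control LSECs held 7.80 to 9.94 TPM and Brg1-ECko LSECs 8.33 to 15.9 TPM. Brg1/Chd4-ECdko replicate 2 was the highest of the 12 non-EC libraries for both Hapln1 and Tnnt2.

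**Figure D2:**
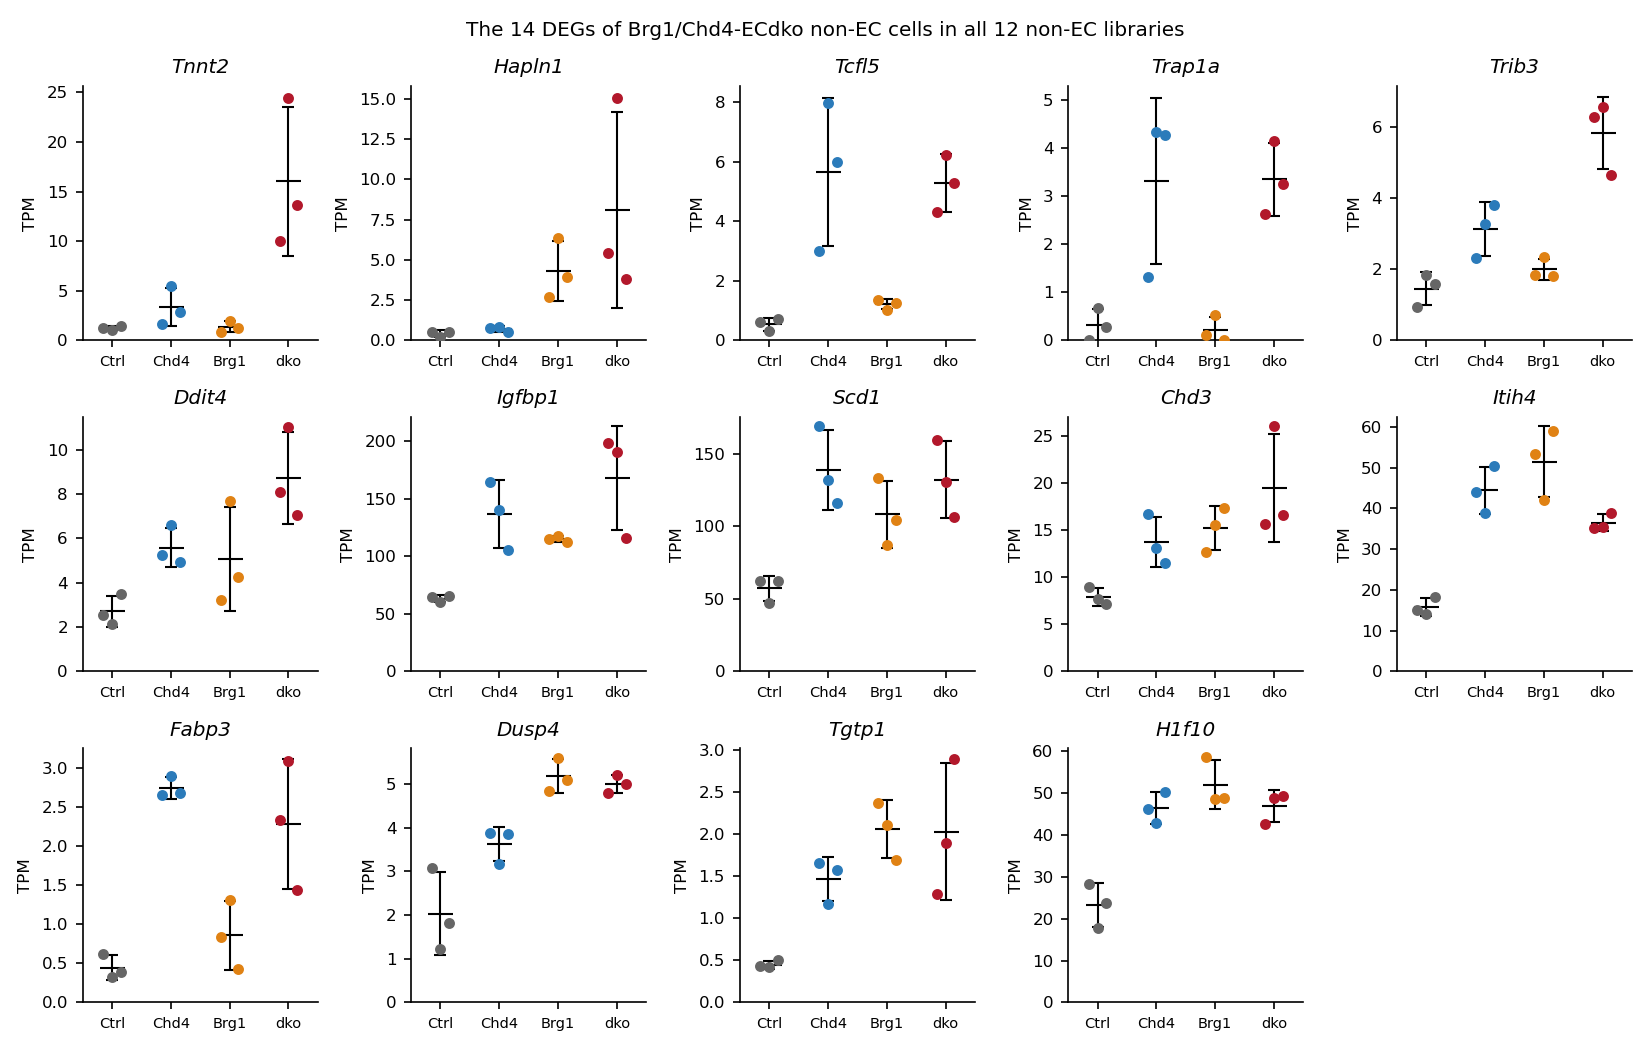
TPM (vertical axes, linear and from 0) of the 14 DEGs in the 12 non-EC libraries by genotype (Ctrl, control; Chd4, Chd4-ECko; Brg1, Brg1-ECko; dko, Brg1/Chd4-ECdko), with 1 point per library and the mean ± SD in black. Tnnt2 and Trib3 are highest in dko, Tcfl5, Trap1a and Fabp3 are high in Chd4 and dko, and Itih4 is above the controls in all 3 mutants.

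Trib3 (ENSMUSG00000032715, GRCm39 chr2:152179337-152191958, minus strand) encodes a pseudokinase that the transcription factor ATF4 induces when amino acids run short or the endoplasmic reticulum (ER) is stressed. It stood at 0.931, 1.84 and 1.58 TPM in controls and at 6.27, 6.56 and 4.66 TPM in Brg1/Chd4-ECdko, with every Brg1/Chd4-ECdko library above every control (1.49 ± 0.20, adjusted p = 0.0291). Ddit4 (ENSMUSG00000020108, GRCm39 chr10:59785491-59788492, minus strand), which encodes the mTORC1 inhibitor REDD1, was at 2.54, 2.13 and 3.47 TPM in controls and at 8.07, 11.03 and 7.06 TPM in Brg1/Chd4-ECdko (1.38 ± 0.26, adjusted p = 0.0466). Trib3 was at 2.31, 3.28 and 3.80 TPM in Chd4-ECko livers and at 1.84, 2.35 and 1.81 TPM in Brg1-ECko livers, all below the lowest Brg1/Chd4-ECdko library. Its direct differences were 0.73 ± 0.20 from Chd4-ECko and 1.18 ± 0.20 from Brg1-ECko, with adjusted p of 0.217 and 0.216.

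The other ATF4 genes differed less. Of 30 tested members 23 had a positive log2 fold change, 2 were called, both higher, and the median was 0.22. Psph, of serine synthesis, was at 128, 122 and 147 TPM in controls and at 176, 173 and 185 TPM in Brg1/Chd4-ECdko (0.43 ± 0.11, adjusted p = 0.0918). Vldlr, a lipoprotein receptor, was at 4.11, 3.28 and 4.42 TPM against 10.3, 9.82 and 6.34 TPM (0.98 ± 0.26, adjusted p = 0.113). Both stood above every control without being called, and Atf4 itself overlapped between groups at 388, 463 and 400.3 TPM against 428, 410.3 and 398 TPM. All 18 genes of the unfolded protein response of the ER had a positive log2 fold change, with a median of 0.26, and none was called. Among them Manf, a protein secreted under ER stress, was at 157, 152 and 174 TPM against 204, 188 and 206 TPM (0.31 ± 0.08, adjusted p = 0.104). Pdia4, an ER disulfide isomerase, was at 455, 372 and 495 TPM against 603, 592 and 604 TPM (0.45 ± 0.13, adjusted p = 0.153), and Xbp1, a transcription factor of the response, at 49.3, 47.4 and 55.8 TPM against 69.5, 57.7 and 66.8 TPM (0.34 ± 0.11, adjusted p = 0.183).

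ATF4 binds together with C/EBP partners to a C/EBP-ATF response element, written TGATGNAA, which was searched on both strands of the 300-base promoters of RefSeq (GRCm38.p6, 250 bases before to 50 after each start site). The element occurred in 1096 of 27025 promoters (4.06%) and in 6 of the 26 tested ATF4 genes that had a promoter in the table. The promoters of Trib3 and Asns are printed because both hold 1 match while only Trib3 was called: Asns, asparagine synthetase and chosen after its values were seen, had a log2 fold change of 0.02 (adjusted p = 0.988). Capitals mark the match, on the minus strand from 14 bases after the start site in Trib3 (GRCm38.p6 chr2:152344011-152344310, minus strand) and on the plus strand from position -23 in Asns (GRCm38.p6 chr6:7693160-7693459, minus strand).
Trib3: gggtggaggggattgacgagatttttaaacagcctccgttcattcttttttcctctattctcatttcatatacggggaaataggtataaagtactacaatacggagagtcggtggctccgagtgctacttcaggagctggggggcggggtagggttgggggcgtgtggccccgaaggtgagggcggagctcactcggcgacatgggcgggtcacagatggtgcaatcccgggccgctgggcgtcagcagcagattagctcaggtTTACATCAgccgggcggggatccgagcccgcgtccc
Asns: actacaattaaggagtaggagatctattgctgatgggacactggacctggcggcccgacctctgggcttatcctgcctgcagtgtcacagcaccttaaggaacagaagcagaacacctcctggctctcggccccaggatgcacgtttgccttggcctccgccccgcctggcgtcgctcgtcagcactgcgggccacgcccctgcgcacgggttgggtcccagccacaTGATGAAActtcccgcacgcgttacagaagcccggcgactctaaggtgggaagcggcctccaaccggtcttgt
The Ddit4 promoter held no match in this window.

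Itih4 (ENSMUSG00000021922, GRCm39 chr14:30608378-30624310, plus strand) encodes heavy chain 4 of the inter-alpha-trypsin inhibitor family, plasma proteins of liver origin. It stood at 15.1, 13.98 and 18.2 TPM in controls and at 35.1, 35.5 and 38.9 TPM in Brg1/Chd4-ECdko. The groups were tight and well apart, with means of 15.8 ± 2.16 and 36.5 ± 2.08 TPM (SD, n = 3 each) and a log2 fold change of 1.17 ± 0.14 (adjusted p = 0.0283 by limma). Itih4 was at 44.1, 38.8 and 50.4 TPM in Chd4-ECko livers and at 53.4, 41.96 and 58.9 TPM in Brg1-ECko livers, also above every control. The difference of Brg1/Chd4-ECdko from Chd4-ECko was -0.27 ± 0.14 (adjusted p = 0.267) and that from Brg1-ECko was -0.47 ± 0.14 (adjusted p = 0.300).

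All 6 members of the inhibitor family had a positive log2 fold change, with a median of 0.64, and Itih4 was the called one. Ambp, which encodes the light chain bikunin, was at 820.5, 782 and 925 TPM in controls and at 1499, 1177 and 1242 TPM in Brg1/Chd4-ECdko (0.63 ± 0.14, adjusted p = 0.0662). Itih3 was at 90.3, 92.96 and 111 TPM against 171, 173 and 138 TPM (0.70 ± 0.19, adjusted p = 0.124). The groups did not overlap for either gene.

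Other genes of proteins that hepatoblasts secrete lay on the same side. Of 29 tested plasma protein genes 28 had a positive log2 fold change, 3 were called (Apoa2, Hpx and Vtn), and the median was 0.50 against 0.01 over all genes. Apoa2, an apolipoprotein of high-density lipoprotein, was at 1096, 1279 and 1314 TPM in controls and at 2051, 1691 and 1775 TPM in Brg1/Chd4-ECdko (0.58 ± 0.10, adjusted p = 0.0466). Hpx, the heme carrier hemopexin, was at 145, 139.7 and 182 TPM against 274, 221 and 247 TPM (0.67 ± 0.12, adjusted p = 0.0466). The most abundant genes did not pass, with Afp at 7808, 7857 and 8506 TPM against 13655, 10613 and 11422 TPM (0.56 ± 0.18, adjusted p = 0.209) and Alb, albumin, at 5564, 5779 and 6475 TPM against 9183, 6478 and 7241 TPM (0.35 ± 0.21, adjusted p = 0.628). The summed TPM of the list was 25009 to 27861 in controls and 32887 to 44057 in Brg1/Chd4-ECdko.

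Transcription factors that define hepatoblasts all leaned the same way. All 15 tested had a positive log2 fold change, with a median of 0.52, and 1 was called. This was Foxa2, a pioneer factor of endoderm, at 12.4, 13.7 and 12.8 TPM in controls and at 21.2, 19.5 and 22.6 TPM in Brg1/Chd4-ECdko (0.66 ± 0.13, adjusted p = 0.0466). Foxa3 was at 14.98, 15.4 and 14.3 TPM against 22.9, 21.5 and 21.1 TPM (0.52 ± 0.11, adjusted p = 0.0590). Tbx3, a T-box factor, and Cebpa had log2 fold changes of 0.74 and 0.50 (adjusted p = 0.129 and 0.129). Hnf4a, which maintains hepatocyte identity, was at 71.2, 55.5 and 78.6 TPM against 122, 96.4 and 107 TPM (0.66 ± 0.20, adjusted p = 0.154). Every Brg1/Chd4-ECdko library was above every control for these 4, without a call. Foxa3, Tbx3 and Cebpa were named for their small p in this same comparison, so that their lack of overlap adds no support.

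Igfbp1 (ENSMUSG00000020429, GRCm39 chr11:7147651-7152546, plus strand), a secreted binding protein of insulin-like growth factors, was a DEG at 64.3, 59.9 and 65.4 TPM in controls and at 198, 190 and 116 TPM in Brg1/Chd4-ECdko (1.36 ± 0.19, adjusted p = 0.0291). Other called genes of secreted proteins, outside the lists and chosen after their values were seen, were F7, coagulation factor VII, at 20.6, 18.7 and 22.9 TPM against 31.1, 34.8 and 33.96 TPM (0.66 ± 0.12, adjusted p = 0.0466), and Lect2, a hepatokine, at 34.7, 28.6 and 37.1 TPM against 59.1, 50.01 and 62.8 TPM (0.76 ± 0.13, adjusted p = 0.0403). Serpinf1, pigment epithelium-derived factor, and Angptl8, a regulator of lipoprotein lipase, had log2 fold changes of 0.62 and 0.85 (adjusted p = 0.0466 and 0.0466). In the list of plasminogen activation 2 of 14 tested genes were called, 10 were positive and 4 negative, and the median was 0.50. Serping1, the C1 inhibitor, rose from 33.2, 25.1 and 37.1 TPM to 63.9, 50.9 and 59.3 TPM (0.86 ± 0.16, adjusted p = 0.0466), and Vtn, vitronectin, from 231, 220 and 247 TPM to 418, 348 and 353 TPM (0.67 ± 0.13, adjusted p = 0.0466). Plau, urokinase, was at 1.96, 1.75 and 3.32 TPM against 4.12, 5.78 and 5.36 TPM and was not called (0.88 ± 0.20, adjusted p = 0.0725). Plgrkt, a plasminogen receptor chosen after its values were seen, was below every control at 21.02, 20.9 and 20.9 TPM against 15.9, 18.2 and 16.2 TPM (-0.31 ± 0.13, adjusted p = 0.388).

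Liver metabolism gave called genes too. Of 9 urea cycle genes 1 was called, Asl (argininosuccinate lyase), at 25.4, 22.6 and 25.8 TPM in controls and at 36.6, 37.02 and 36.6 TPM in Brg1/Chd4-ECdko (0.56 ± 0.09, adjusted p = 0.0348), and the median was 0.27. Outside the lists and chosen after their values were seen, Gulo, of vitamin C synthesis, was at 59.9, 36.02 and 56.95 TPM against 108, 92.99 and 95.8 TPM (0.98 ± 0.17, adjusted p = 0.0466). Gys2, the liver glycogen synthase, was at 59.5, 41.8 and 71.2 TPM against 117, 104 and 107 TPM (0.94 ± 0.17, adjusted p = 0.0466). For all 3 genes the groups did not overlap.

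Genes of lipid synthesis leaned one way. All 32 genes of cholesterol and fatty acid synthesis had a positive log2 fold change, 26 of them at an unadjusted p under 0.05. For 28 the 3 Brg1/Chd4-ECdko libraries lay above the 3 controls, against 16% of all genes. Of the 32, 4 were called, all higher, and the median was 0.59. Scd1 (ENSMUSG00000037071, GRCm39 chr19:44382894-44399154, minus strand), stearoyl-CoA desaturase, was a DEG at 62.04, 47.5 and 62.6 TPM in controls and at 159, 131 and 106 TPM in Brg1/Chd4-ECdko (1.18 ± 0.20, adjusted p = 0.0352). Fdps, farnesyl diphosphate synthase, was at 253, 260.2 and 266 TPM against 443, 399 and 379 TPM (0.64 ± 0.11, adjusted p = 0.0352). Mvd, mevalonate diphosphate decarboxylase, was at 29.2, 22.7 and 30.2 TPM against 49.3, 52.9 and 40.6 TPM (0.78 ± 0.13, adjusted p = 0.0348), and Fdft1, squalene synthase, at 69.3, 60.8 and 67.2 TPM against 107, 107 and 82.6 TPM (0.57 ± 0.11, adjusted p = 0.0476). The sterol regulatory element TCACNCCAC occurred on either strand in 330 of 27025 promoters (1.22%) and in 1 of the 22 list genes with a promoter in the table, Hmgcs1 (chosen for this match). Of the 4 called genes Mvd was searched and held no match in this window, and Scd1, Fdps and Fdft1 were not searched. The summed TPM of the list was 2415 to 2820 in controls and 3533 to 4407 in Brg1/Chd4-ECdko.

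**Figure D3:**
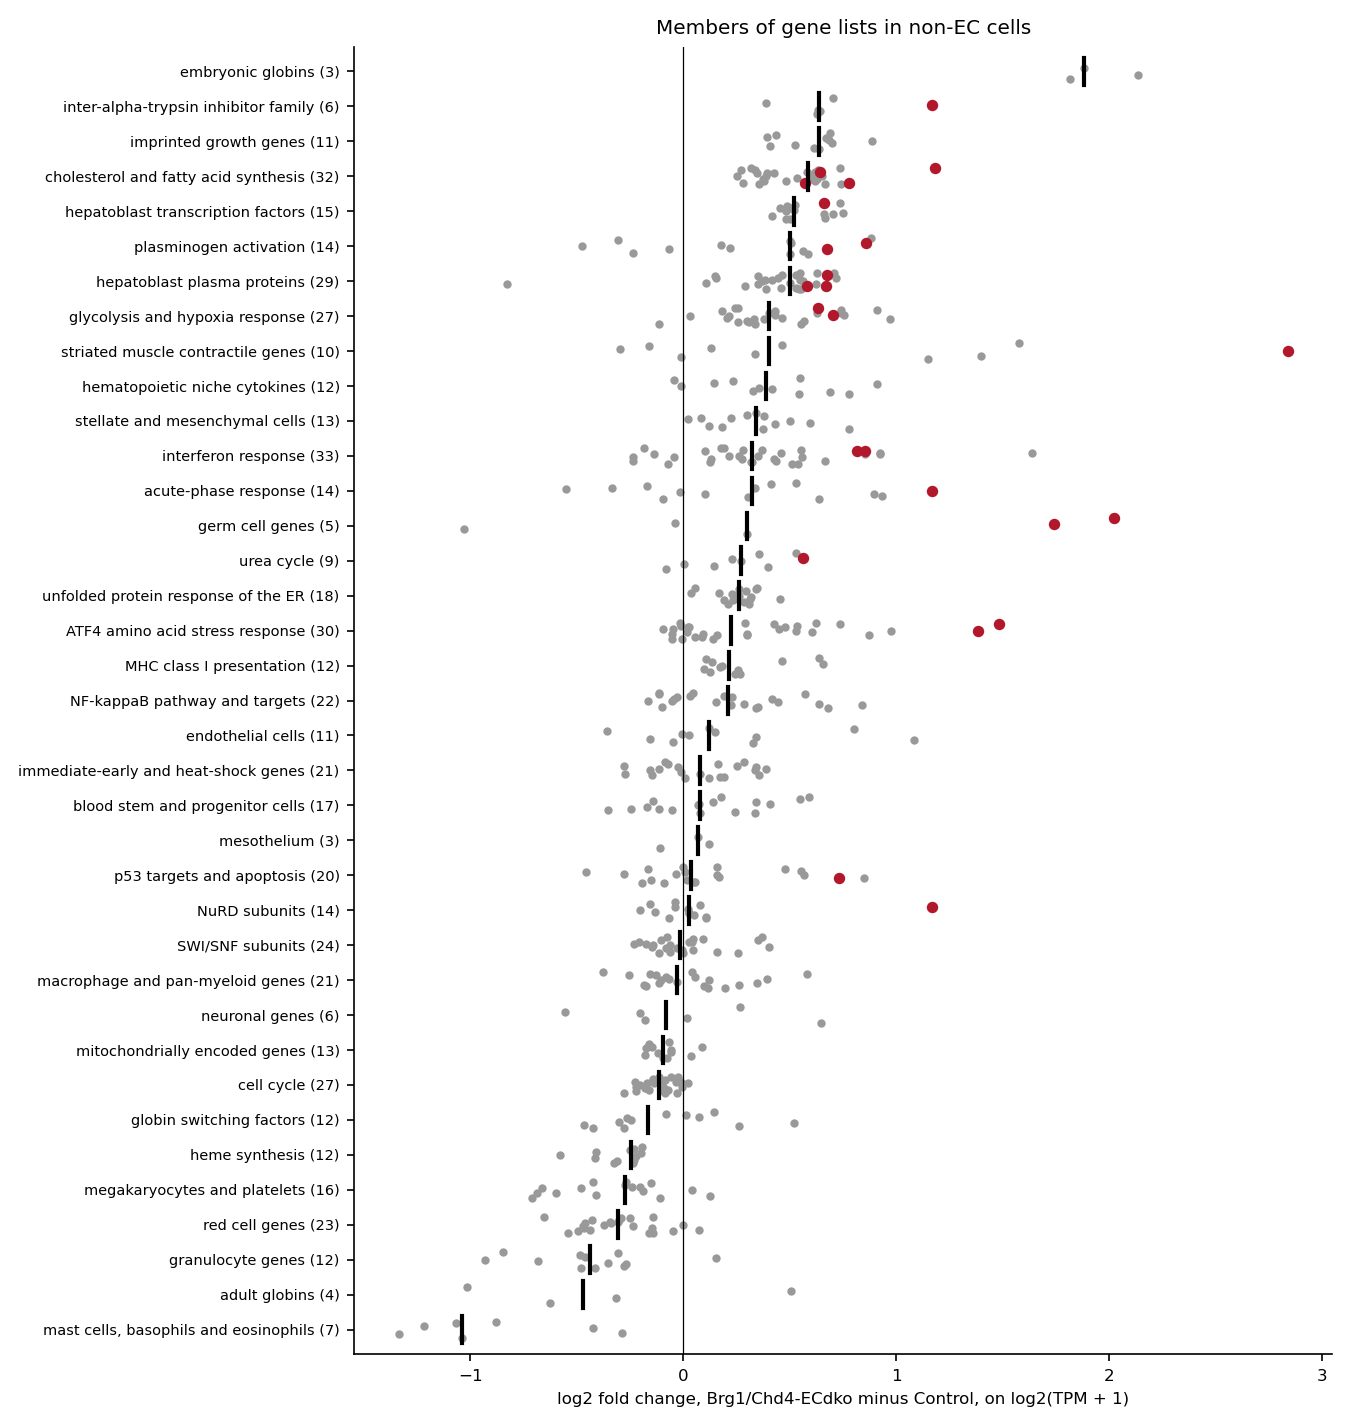
Log2 fold change between Brg1/Chd4-ECdko and control non-EC cells (horizontal axis) of every tested member of each gene list with 3 or more tested genes (vertical axis, number tested in parentheses), with called genes in red, others in grey and the list's median as a black bar. Hepatoblast and lipid lists lie to the right of 0, with medians of 0.50 for plasma proteins and 0.59 for lipid synthesis, and red cell genes to the left, with a median of -0.31.

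Glycolysis and hypoxia genes had a median log2 fold change of 0.40. Of 27 tested 26 were positive and 2 were called. Ndrg1, a gene induced by low oxygen, was at 50.98, 47.9 and 55.5 TPM in controls and at 87.4, 92.99 and 74.1 TPM in Brg1/Chd4-ECdko (0.71 ± 0.11, adjusted p = 0.0291). Egln1, the prolyl hydroxylase that marks HIF-1 alpha for degradation, was at 34.9, 37.01 and 32.1 TPM against 52.5, 63.99 and 47.3 TPM (0.63 ± 0.11, adjusted p = 0.0352). Bnip3, a mitophagy receptor, was at 67.5, 78.5 and 61.5 TPM against 132, 196 and 96.4 TPM and narrowly missed the threshold (0.97 ± 0.21, adjusted p = 0.0590). All 11 imprinted growth genes were positive with a median of 0.64 and none called, among them Dlk1, a surface marker of hepatoblasts, at 316, 247 and 293 TPM against 511, 411 and 440.2 TPM (0.67 ± 0.13, adjusted p = 0.0516).

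Of 33 tested interferon-stimulated genes 27 were positive, 2 were called and the median was 0.32. Usp18, which dampens interferon signaling, was at 4.35, 5.24 and 4.91 TPM in controls and at 8.91, 9.55 and 10.2 TPM in Brg1/Chd4-ECdko (0.85 ± 0.15, adjusted p = 0.0374). Lgals3bp, a secreted galectin ligand, was at 30.01, 23.2 and 32.5 TPM against 52.6, 47.2 and 52.3 TPM (0.82 ± 0.16, adjusted p = 0.0483). Tgtp1 (ENSMUSG00000078922, GRCm39 chr11:48876154-48884999, minus strand), an interferon-inducible GTPase outside this list, was a DEG at 0.428, 0.416 and 0.500 TPM against 1.29, 1.89 and 2.90 TPM (1.03 ± 0.19, adjusted p = 0.0466), although a near-identical gene copy makes its read assignment uncertain. With a pseudocount of 0.1 TPM its log2 fold change was 1.888. Cxcl10, a chemokine, was at 5.53, 1.49 and 4.11 TPM against 13.01, 15.6 and 9.80 TPM without being called (1.64 ± 0.35, adjusted p = 0.0600). All 12 genes of MHC class I presentation were positive with a median of 0.21, and none was called.

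Of 14 acute-phase genes 9 were positive, Itih4 was the called one and the median was 0.32. Steap4, a metalloreductase, was at 0.543, 0.719 and 1.27 TPM against 2.06, 2.42 and 2.71 TPM (0.90 ± 0.19, adjusted p = 0.0597). Il1r1, an interleukin-1 receptor, was at 30.4, 19.8 and 25.8 TPM against 51.1, 48.2 and 46.9 TPM (0.94 ± 0.26, adjusted p = 0.124). Both stood above every control without a call. Haptoglobin (Hp, chosen after its values were seen) was at 19.9, 11.5 and 31.8 TPM in controls and at 10.98, 14.5 and 13.6 TPM in Brg1/Chd4-ECdko, with overlap, and Saa1 and Saa2, the serum amyloids of an acute response, were listed at 0 in all 6 libraries. The cytokine genes Tnf, Il1b and Il6 were under the filter on low values. Their means were 0.422 ± 0.228, 0.560 ± 0.167 and 0.220 ± 0.123 TPM in controls and 0.509 ± 0.225, 0.483 ± 0.365 and 0.175 ± 0.0621 TPM in Brg1/Chd4-ECdko (SD). Two-sided exact permutation tests gave p = 0.7, 0.9 and 0.7, where 3 against 3 libraries cannot go below 0.1. Rela, an NF-kappaB subunit, was at 39.5, 32.6 and 40.5 TPM against 37.6, 35.5 and 35.4 TPM, and none of the 22 tested genes of the NF-kappaB list was called, with a median of 0.21. Of these 22 genes 15 were positive, and 6 were higher at an unadjusted p under 0.05. In the list 8 stood above every control and none below, against 16% and 8.01% of all genes. Bcl3, an NF-kappaB cofactor, was at 5.19, 3.68 and 3.55 TPM against 7.90, 6.76 and 6.86 TPM (0.68 ± 0.16, adjusted p = 0.0750), and Cxcl1, a chemokine, had a log2 fold change of 0.84 ± 0.26, adjusted p = 0.176.

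The remaining DEGs concern chromatin and signaling. Chd3 (ENSMUSG00000018474, GRCm39 chr11:69234088-69260252, minus strand), a NuRD ATPase that can take the place of CHD4, was at 8.95, 7.64 and 7.15 TPM in controls and at 15.7, 26.1 and 16.6 TPM in Brg1/Chd4-ECdko (1.17 ± 0.20, adjusted p = 0.0374). It was the called member among 14 tested NuRD subunits, whose median was 0.02, and of 24 SWI/SNF subunits none was called, with a median of -0.02. H1f10 (ENSMUSG00000044927, GRCm39 chr6:87957403-87958619, minus strand), a linker histone, was at 28.2, 17.6 and 23.7 TPM against 42.5, 48.9 and 49.2 TPM (1.00 ± 0.15, adjusted p = 0.0291). Dusp4 (ENSMUSG00000031530, GRCm39 chr8:35274442-35287048, plus strand), a phosphatase of MAP kinases, was at 3.07, 1.22 and 1.81 TPM against 4.79, 5.21 and 5.01 TPM (1.03 ± 0.19, adjusted p = 0.0466). Chd3, H1f10 and Dusp4 also had higher means than controls in both single mutants. In Chd4-ECko and Brg1-ECko these were 13.8 and 15.2 TPM for Chd3, 46.4 and 52.0 for H1f10, and 3.63 and 5.18 for Dusp4. Bbc3, which encodes the pro-apoptotic protein PUMA, was the called gene among 20 p53 targets with a median of 0.03, at 5.96, 5.83 and 5.25 TPM against 9.09, 10.6 and 10.6 TPM (0.73 ± 0.12, adjusted p = 0.0348).

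The 2 called lower genes did not reach the DEG threshold. Cttnbp2, a cytoskeletal protein that binds cortactin, stood at 1.16, 1.46 and 1.001 TPM in controls and at 0.0747, 0.132 and 0.174 TPM in Brg1/Chd4-ECdko, with no overlap (-0.97 ± 0.18, adjusted p = 0.0466). At these low levels the pseudocount sets the size, and with a pseudocount of 0.1 TPM the log2 fold change was -2.535. Sh2d4a, an adaptor with an SH2 domain, stood at 56.6, 55.2 and 59.99 TPM against 41.3, 35.6 and 37.3 TPM (-0.58 ± 0.10, adjusted p = 0.0348). The next lower genes by p, which were not called, were Ear6, Ear2 and Nxpe2. Ear6 and Ear2 are eosinophil-associated ribonucleases of a family with near-identical copies, at 13.1, 17.5 and 33.2 TPM against 4.37, 5.17 and 7.80 TPM (-1.64 ± 0.33, adjusted p = 0.0516) and 18.1, 25.6 and 29.2 TPM against 8.21, 5.98 and 5.74 TPM (-1.72 ± 0.36, adjusted p = 0.0590). Nxpe2 was at 71.7, 89.3 and 68.95 TPM against 42.5, 46.95 and 45.95 TPM (-0.74 ± 0.16, adjusted p = 0.0590). Cttnbp2, Sh2d4a, Ear6, Ear2 and Nxpe2 also had lower means than controls in both single mutants. In Chd4-ECko and Brg1-ECko the means were 44.6 and 44.6 TPM for Sh2d4a, 6.17 and 5.16 for Ear6, 5.01 and 6.11 for Ear2, and 36.0 and 30.6 for Nxpe2.

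The blood cell lists held no called gene and did not all lean 1 way. Macrophage genes divided into 10 positive and 11 negative, with a median of -0.03, and 11 of 17 blood stem and progenitor genes and both tested lymphoid genes were positive. All 7 tested genes of mast cells, basophils and eosinophils had a negative log2 fold change, with a median of -1.04 and 5 at an unadjusted p under 0.05. Their summed TPM was 178 to 400.4 in controls and 73.6 to 129.7 in Brg1/Chd4-ECdko. The single mutants were alike, with 77.2 to 147 TPM and a median of -1.03 in Chd4-ECko, and 74.1 to 137 TPM and a median of -1.07 in Brg1-ECko. Prg2, eosinophil major basic protein, was at 123, 149.7 and 315 TPM against 54.1, 66.7 and 96.99 TPM (-1.34 ± 0.37, adjusted p = 0.130). Of 12 granulocyte genes 11 were negative, with a median of -0.44, and of 16 tested megakaryocyte genes 14 were negative, with a median of -0.27. The summed TPM of the macrophage list was 503 to 891 in controls and 531 to 821 in Brg1/Chd4-ECdko, and the groups overlapped.

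No red cell gene was called. Of 23 tested 22 had a negative log2 fold change, the median was -0.31 and 3 had an unadjusted p under 0.05. For 10 the 3 Brg1/Chd4-ECdko libraries lay below the 3 controls, against 8.01% of all genes. Ermap, an erythroid membrane protein, was at 303, 328 and 300 TPM in controls and at 228, 225 and 206 TPM in Brg1/Chd4-ECdko (-0.50 ± 0.13, adjusted p = 0.0992). All 12 heme synthesis genes were negative, with a median of -0.24. The summed TPM of the red cell list was 3411 to 5344 in controls and 2934 to 3457 in Brg1/Chd4-ECdko, so that the groups overlapped. TPM are shares of a library, so that these values and the higher hepatoblast values are linked, and the part of the one in the other was not tested. The isolation that the study adapted includes lysis of red cells.

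No globin was called. Hbb-y, Hbb-bh1 and Hba-x, the embryonic globins of primitive red cells, stood above every control in every Brg1/Chd4-ECdko library. Hbb-y was at 5.69, 3.16 and 2.03 TPM in controls and at 13.3, 19.5 and 23.5 TPM in Brg1/Chd4-ECdko (2.14 ± 0.54, adjusted p = 0.0987). The embryonic globins summed to 9.70 to 29.96 TPM in controls and 54.1 to 100.2 TPM in Brg1/Chd4-ECdko, and to 75.7 to 492 TPM in Chd4-ECko livers. The adult globins, of which Hba-a1 and Hba-a2 are near-identical, summed to 2060 to 9506 TPM in controls and 2146 to 4921 TPM in Brg1/Chd4-ECdko, so that the groups overlapped, with 1 of the 4 higher and 3 lower. Whether embryonic and adult globins differed in their response was not tested. Bcl11a, a repressor of embryonic globins, was at 68.6, 67.9 and 68.1 TPM against 47.7, 56.3 and 48.3 TPM (-0.42 ± 0.10, adjusted p = 0.0682), and Klf1, an erythroid activator, at 321, 459 and 308 TPM against 240.1, 268 and 268 TPM (-0.47 ± 0.26, adjusted p = 0.567). Both were below every control without a call. The list of 12 globin switching factors that holds them had 5 positive members, up to 0.52, and 7 negative. In it 1 gene stood above every control and 4 below, against 16% and 8.01% of all genes.

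**Figure D4:**
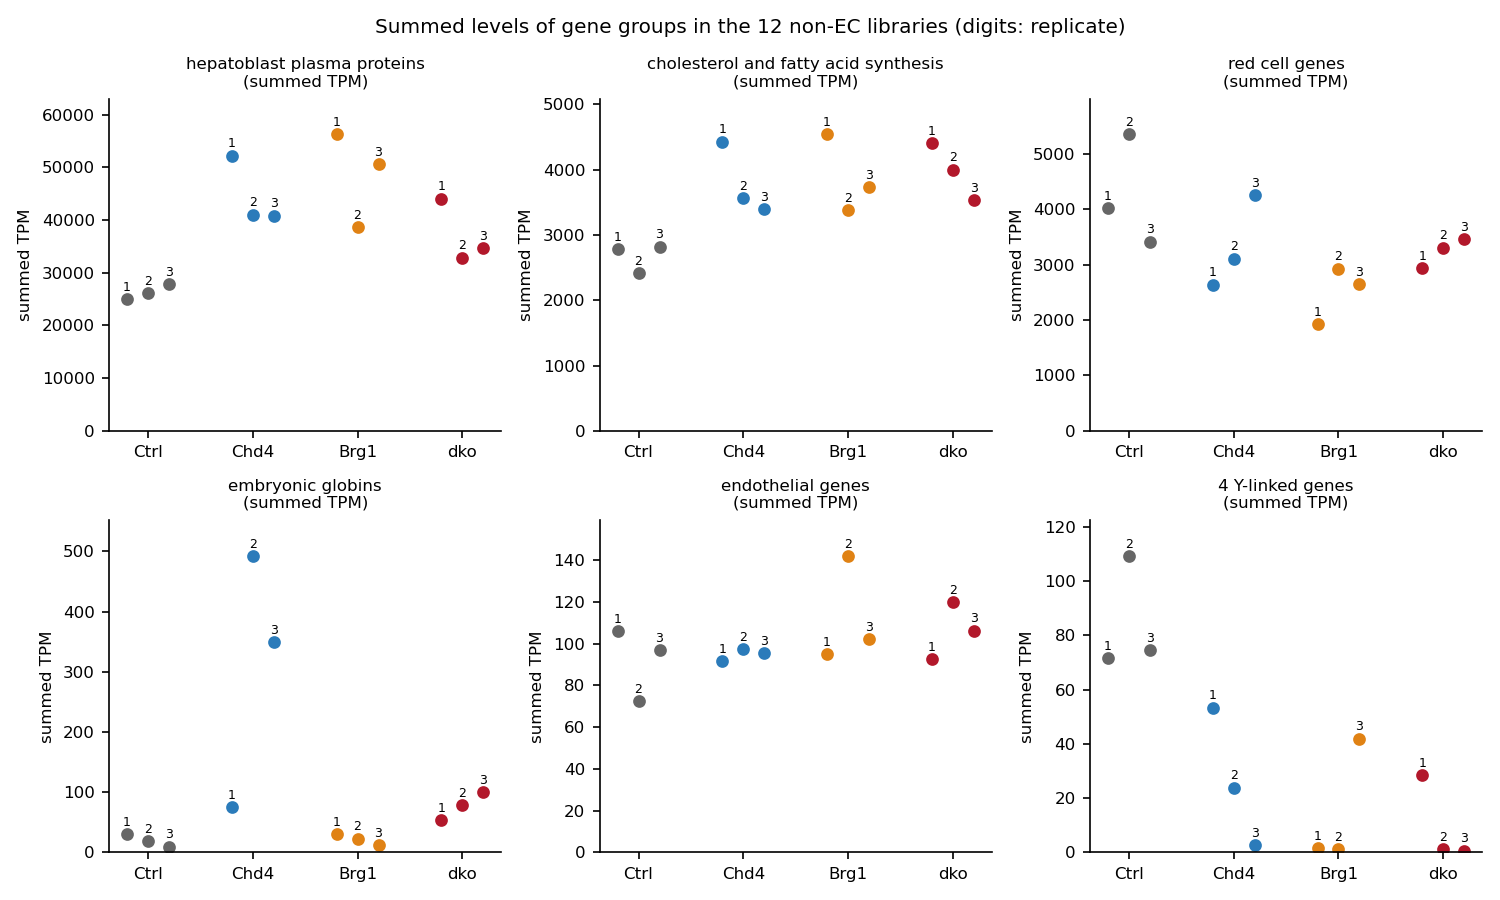
Summed TPM (vertical axes, from 0) of 6 gene groups in each of the 12 non-EC libraries, by genotype and numbered by replicate. Plasma protein, lipid and embryonic globin sums of the 3 dko libraries lie above those of the 3 controls, red cell and endothelial sums overlap, and the Y-linked sum is high in all controls and in 1 dko library.

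No endothelial, stellate or mesenchymal marker was called. Among 11 tested endothelial genes 7 were positive and 4 negative, from -0.36 to 1.08, with a median of 0.12. In this list 1 gene stood above every control and 1 below, against 16% and 8.01% of all genes. Kdr, a VEGF receptor, was at 5.47, 3.11 and 4.90 TPM in controls and at 8.37, 14.3 and 9.41 TPM in Brg1/Chd4-ECdko (1.08 ± 0.36, adjusted p = 0.210). The stellate and mesenchymal list had 13 of 18 genes tested, all positive, with a median of 0.34 and a summed TPM of 65.6 to 126 in controls against 130 to 157 in Brg1/Chd4-ECdko. These sums did not overlap, and their part in the results above was not tested. Of 27 cell cycle genes 26 were negative, with a median of -0.11 and none called. Immediate-early and heat-shock genes, which tissue digestion can induce, had a median of 0.08, which turned negative with embryo sex as a covariate.

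The remaining lists had no called gene. Their medians were 0.39 for 12 hematopoietic niche cytokines, 0.08 for 17 blood stem and progenitor genes, -0.16 for 12 globin switching factors, -0.10 for 13 mitochondrially encoded genes, 0.07 for 3 mesothelial genes, -0.08 for 6 neuronal genes and 0.07 for 2 lymphoid genes. Thpo, the cytokine of megakaryocytes, was at 1.89, 1.47 and 2.01 TPM in controls and at 3.99, 4.24 and 3.14 TPM in Brg1/Chd4-ECdko (0.78 ± 0.21, adjusted p = 0.113). Epo, the cytokine of red cells, was at 1.40, 0.936 and 1.31 TPM against 4.32, 3.66 and 1.90 TPM (0.91 ± 0.31, adjusted p = 0.227). Both stood above every control, and neither was called.

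Against the single mutants no gene was called with all libraries. None passed the adjustment in limma between Brg1/Chd4-ECdko and Chd4-ECko (0%, with 2668 genes at an unadjusted p under 0.05), and none between Brg1/Chd4-ECdko and Brg1-ECko (0%, with 1558 genes). The Chd4-ECko libraries spread widely: on the first principal component, with 46.3% of the variance, they lay at -15.02, 29.43 and 57.48, against -22.49 to -3.60 in Brg1/Chd4-ECdko, and mitochondrially encoded genes held 7.37%, 3.43% and 2.33% of their TPM against 6.43% to 6.65%. Without Chd4-ECko replicate 1 limma called 3938 genes between Brg1/Chd4-ECdko and Chd4-ECko, and without each of the other 5 libraries in turn 0, with 785 to 2226 genes at an unadjusted p under 0.05. Between Brg1/Chd4-ECdko and Brg1-ECko 0 genes were called without any 1 library, with 754 to 1244 at that level. The part of these spreads in the comparison was not otherwise tested. The 3 mutants share their 3 controls. The 69 higher genes had a median log2 fold change of 0.78 in Brg1/Chd4-ECdko, for which they were chosen, against 0.85 in Chd4-ECko and 0.92 in Brg1-ECko. All 69 were also higher than controls in Chd4-ECko, and 68 of them in Brg1-ECko. For the 29 plasma protein genes the medians were 0.50, 0.81 and 0.94 in the same order, for the 32 lipid genes 0.59, 0.51 and 0.57, and for the 23 red cell genes -0.31, -0.16 and -0.63.

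**Figure D5:**
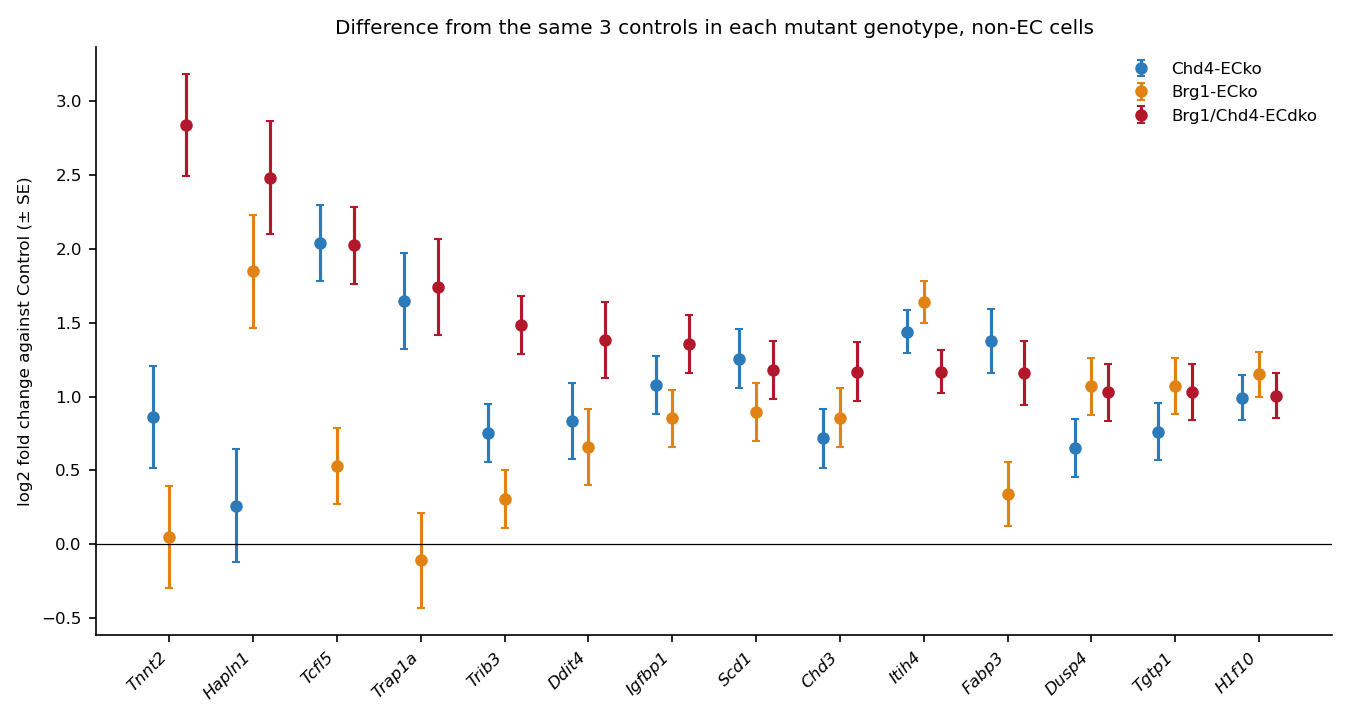
Log2 fold change from the same 3 controls (vertical axis, ± SE) of the 14 DEGs in each mutant genotype of non-EC cells. Tnnt2 is at 2.84 in Brg1/Chd4-ECdko, 0.86 in Chd4-ECko and 0.05 in Brg1-ECko, while Itih4 is at 1.17, 1.44 and 1.64.

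The effect of the double deletion was compared between the fractions with an interaction term. Of 13775 genes tested 8 (0.0581%) had an effect in non-EC cells that differed from that in LSECs at adjusted p under 0.05, and 1043 did so at an unadjusted p under 0.05. Of the 71 called genes 1 was among them, Ldhb, a lactate dehydrogenase subunit, which stood at 58.6, 39.9 and 65.96 TPM in controls and at 97.3, 112 and 102 TPM in Brg1/Chd4-ECdko in the non-EC fraction (0.93 ± 0.16, adjusted p = 0.0352). None of the 14 DEGs passed that test, the lowest adjusted p being 0.194 for Trib3. Tnnt2 was at 21.8, 14.2 and 21.8 TPM in control LSECs and at 21.8, 52.95 and 41.4 TPM in Brg1/Chd4-ECdko LSECs, and the groups met at their edges (0.91, adjusted p = 0.281).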

How the data were processed

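The values were TPM of 24 libraries, deposited by the authors as 1 table. According to the study's methods, repeated guanines were trimmed from the paired reads, which were then aligned to GRCm39 in CLC Genomics Workbench. The step that made the TPM is not given in the sources used here. The builds GRCm39 and mm39 are those in the submitters' processing notes. The digestion held transcription and translation inhibitors. TPM keep no depth, so that counting error is unknown.

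TPM were taken as log2(TPM + 1), keeping genes with at least 1 TPM in 3 or more of the 12 non-EC libraries. One model of 4 genotype means was fitted in limma 3.58.1 (R 4.3.3) with a variance trend and Benjamini-Hochberg adjustment, after the script was tested on simulated data. The interaction used all 24 libraries. Sex was read from the summed TPM of 4 Y-linked genes (above 10). Positions are from the GRCm39 annotation by gene ID, and promoters from RefSeq (GRCm38.p6).

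With the exceptions below, the genes named were drawn from those that were given with the comparison, were DEGs or, with fewer than 5 DEGs in a direction, the 5 of smallest p, were the 4 members of smallest p or the 2 of highest level in 1 of 38 lists, or were Chd4, Smarca4, Cdh5, Stab2, Mcam, Afp, Tnf, Rela, Il1b or Il6. Not every list member that met this rule is printed. Genes marked as chosen after their values were seen, or for a match, fell outside this rule. So did Serpinf1, Angptl8, Saa1 and Saa2, and Ldhb and Nefh, which came from the interaction. Stab2 was under the filter, at a mean of 0.609 TPM in controls and 0.446 TPM in Brg1/Chd4-ECdko. The members and lists were chosen with earlier results of these data known. Alternatives changed the pseudocount, filter, scaling, trend, model, block, sex term, fold threshold and libraries.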

Additional observations from a re-analysis of the deposited data

Results flagged for a closer look

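The effect of the double deletion on Ldhb, a lactate dehydrogenase subunit, differed between the fractions. Ldhb stood at 58.6, 39.9 and 65.96 TPM in control and 97.3, 112 and 102 TPM in Brg1/Chd4-ECdko non-EC cells, and at 115, 153 and 107 TPM in control and 94.2, 115 and 105 TPM in Brg1/Chd4-ECdko LSECs. The non-EC minus LSEC difference of the log2 effects was 1.176 (adjusted p = 0.0452 by the limma interaction, and 0.0184 with a block that assumes, without a statement in the labels, that equal genotype and number in both fractions mark 1 embryo).

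The effect on Nefh, a neurofilament subunit, differed in the other direction, by -1.753 (adjusted p = 0.0442 by the limma interaction, and 0.0140 with the same assumed block). Nefh overlapped between groups in non-EC cells, at 4.55, 3.47 and 5.82 TPM in controls and 5.95, 5.19 and 5.83 TPM in Brg1/Chd4-ECdko. In LSECs it was at 1.15, 1.41 and 1.13 TPM in controls and at 7.75, 9.95 and 6.66 TPM in Brg1/Chd4-ECdko.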

How the results depend on the processing

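Against 14 DEGs and 71 called genes as reported, there were 7 DEGs and 36 called genes with no filter, 7 DEGs with a mean of at least 5 TPM, 6 and 30 with TPM rescaled without globin and mitochondrially encoded genes, 0 and 0 with embryo sex as a covariate (1488 at an unadjusted p under 0.05), and 0 and 0 with the Y-linked level as a covariate (1463), an alternative chosen after seeing the data. The log2 fold changes under these covariates were larger for Scd1 (1.18 as reported, 1.35 with sex and 1.45 with the Y-linked level) and Hpx (0.67, 0.79 and 0.86), and for Tnnt2 they were 2.84, 2.66 and 2.45. They were smaller for Trap1a (1.74, 1.44 and 1.23) and Tgtp1 (1.03, 0.83 and 0.71). With no fold threshold the DEGs became 71. The causes were not tested. Leaving out 1 library at a time gave 0 to 7 DEGs and 0 to 14 called genes, with 0 without control replicate 1, control replicate 2 and Brg1/Chd4-ECdko replicates 1 or 2. The pseudocount of 0.1, quantile normalization, the fit without a variance trend, the model of the 2 genotypes alone and the model without 1 Chd4-ECko library stayed within 1.5 times both counts. Of the 71 genes 69, 46, 50, 30 and 49, in that order, were called under these settings.

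The labels do not state that equal replicate numbers pair libraries. The deviations of same-numbered control and Brg1/Chd4-ECdko libraries correlated at 0.0241, -0.103 and -0.0272. These values cover only these genotypes and cannot decide whether the numbers share an effect across all 4. The replicate block gave 23 DEGs and 301 called genes, and 1 gene between Brg1/Chd4-ECdko and Brg1-ECko. Leaving out 1 library at a time, added after seeing the data, gave 0 to 3938 genes between Brg1/Chd4-ECdko and Chd4-ECko and 0 between Brg1/Chd4-ECdko and Brg1-ECko. No control library correlated best with its own number. With an embryo block the interaction called 25 genes against 8, under the assumption, which the labels do not state, that equal numbers in the 2 fractions mark 1 embryo.

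List medians moved by less than the spread between replicates in 614 of 641 cases. Medians of mesothelial, blood stem, macrophage, lymphoid, endothelial, immediate-early, mitochondrially encoded, NuRD, SWI/SNF, germ cell and neuronal genes changed sign under at least 1 setting. Without a change of sign, medians moved by over 1.5 times under at least 1 setting for hepatoblast factors (0.44 to 0.82), plasma proteins (0.40 to 0.80), ATF4 (0.09 to 0.30), unfolded protein response (0.16 to 0.37), stellate (0.07 to 0.50), red cell (-0.48 to -0.18), embryonic globin (0.94 to 2.22), adult globin (-1.20 to -0.05), heme (-0.59 to -0.08), globin switching (-0.21 to -0.07), granulocyte (-0.80 to -0.11), megakaryocyte (-0.68 to -0.10), NF-kappaB (0.10 to 0.26), p53 (0.0024 to 0.13), cell cycle (-0.16 to -0.08), glycolysis (0.19 to 0.50), imprinted (0.55 to 0.98) and niche cytokine genes (0.30 to 0.81). Of the called genes 7 moved as far, Tcfl5, Fabp3, Cttnbp2, Tgtp1, Etv4, Hapln1 and Trap1a. TPM do not show how many reads lie behind low-level genes.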
